A study of Mus musculus with 6 samples.

Results

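The chemokine ligands and chemokine receptors were measured in the cerebral cortex of young and old adult mice by bulk RNA-seq. Members were all genes whose symbol starts with Ccl, Cxcl, Cx3cl, Xcl, Ccr, Cxcr, Cx3cr, Xcr or Ackr followed by a digit. They number 63 of the 55421 genes in the files, with 40 ligands and 23 receptors. The pseudogene Ccl19-ps1 and Cxcl11, annotated as a polymorphic pseudogene, are counted among the ligands. The mice were male, wild-type (WT) C57BL/6J animals, all anesthetized with isoflurane before death. The 6-month-old group held mice 10, 11 and 17 and the 24-month-old group mice 2, 4 and 5, so that n = 3 mice per age, each with 1 library. Values given for single mice follow this order. The tissue is whole cortex, which mixes neurons, glia, vessels and blood, and the comparison asks how the mRNA of each chemokine gene differs between the ages.

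Chemokines are small secreted proteins that guide migrating cells, and they are classed by the spacing of the first cysteines of the mature protein. Most bind G protein-coupled receptors on leukocytes, while atypical receptors (Ackr) bind chemokines without the usual G protein signal and act as scavengers or reservoirs. In the brain, fractalkine (Cx3cl1) is made by neurons and is tethered to the membrane, and its receptor Cx3cr1 is a marker of microglia, the resident macrophages. Cxcl12 guides neuronal and progenitor migration through Cxcr4, and the inflammatory CC ligands recruit monocytes and lymphocytes.

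The coding sequences below show the cysteine spacing that names each class, for 1 ligand per class among those described here. They run from codon 28 to codon 41 of the GENCODE vM21 transcripts, 5′ to 3′, with the cysteine codons in capitals. Ccl8 (CC class) has 0 codons between its cysteines, Cxcl12 (CXC) has 1, Cx3cl1 (CX3C) has 3, and Xcl1 (C class) has a single cysteine codon in this stretch.
Ccl8: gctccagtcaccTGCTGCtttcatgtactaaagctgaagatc
Cxcl12: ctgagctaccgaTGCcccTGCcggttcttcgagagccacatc
Cx3cl1: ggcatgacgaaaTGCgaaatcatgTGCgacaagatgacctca
Xcl1: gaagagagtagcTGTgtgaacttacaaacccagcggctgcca

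The libraries held 29495379 to 36494240 counts on exons. Counts were scaled with edgeR's TMM factors, which were 0.921 to 0.946 at 6 months and 1.04 to 1.10 at 24 months. The median log2 fold change (24 against 6 months) was 0.15 over the 32905 genes tested, and the 15761 of them above 1 CPM (counts scaled to library size) had a median of -0.14, and scaling by library totals moved these medians to 0.34 and 0.05. Differences of this size in expressed genes therefore depend on the scaling. With TMM, 4317 genes were lower at an unadjusted p under 0.05 (edgeR quasi-likelihood test), and with library totals 937 were. The marker and pathway lists below were read out with TMM only. Genes of the sensory epithelia also differed between the ages. The 1831 olfactory, vomeronasal and taste receptor genes (sensory receptor genes), summed, had 0.0220, 0.0239 and 0.0248 CPM per exonic kb in young mice and 0.0853, 0.0719 and 0.0530 in old mice. Their mean was 0.0236 ± 0.00141 against 0.0701 ± 0.0162 (SD, n = 3), a ratio of 2.97 or 1.57 on the log2 scale. This level stands beside the chemokine genes of few counts, and its part in their differences was not tested.

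A large share of the chemokine mRNA in the cortex came from 2 ligands, Cx3cl1 and Cxcl14. Cx3cl1 was lower at 24 months, whereas inflammatory CC ligands of chromosome 11 (Ccl12, Ccl8, Ccl5, Ccl9) and Ccr2, a receptor of monocytes, were higher at an unadjusted p under 0.05. Of the 63 members, 57 had at least 1 count and 53 reached the minimum of 10 counts over the 6 libraries for the test (33 ligands and 20 receptors). Of the 10 not tested, Ccl21a, Ccl21b, Ccl21d, Ccl27b, Ccl19-ps1 and Ccl26 had 0 counts in all libraries, and Ccl19, Ccr8, Cxcr1 and Ccr1l1 had fewer than 10 in all. With edgeR's quasi-likelihood test, 0 members passed 1% FDR, as did 0 of all genes (0.00%). At an unadjusted p under 0.05, 11 ligands and 8 receptors were higher at 24 months, together 35.8% of those tested against 17.6% of all genes. Of these 19, 8 had at most 3 counts in each young mouse and reached the count minimum only through the old ones. Among the 42 members with over 3 counts in a young mouse, 6 ligands and 5 receptors were higher (26.2%), and among all genes so restricted 10.6% were. This restriction uses the young mice alone, but it keeps genes with fewer than 10 counts summed over them. Ccr6, among these 5 receptors, had 2, 1 and 4 counts in the young mice and reached the count minimum only through the old ones. So did Cxcl1, Cxcl9, Cxcl10, Cxcl11 and Cxcl15, which gave no call. Lower were 2 ligands (Cx3cl1 and Ccl27a) and 0 receptors, against 13.1% of all genes. Without mouse 2 the higher ligands numbered 7 and the higher receptors 5, and without mouse 10 the higher receptors numbered 5.

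At 10% FDR, 12 members were higher and 2 lower, beside 10.0% and 8.33% of all genes, and 5 of the 12 had at most 3 counts in each young mouse. The edgeR likelihood ratio test placed 9 members past 1% FDR, DESeq2's Wald test 1 and the quasi-likelihood test without the count minimum 1. Cx3cl1 passed in each of these, and the others of the likelihood ratio test were Ccr4, Cxcl13, Ccl8, Ccl3, Ccl12, Ccl5, Ccr9 and Ccr2. In 12 ligands and 7 receptors, all 24-month mice lay above all 6-month mice, beside 20.0% of all genes (8 and 5 among those with over 3 counts in a young mouse), and in 2 ligands all lay below, beside 16.3%. Of the 53 members tested, 11 had no more than 3 counts in any young mouse and reached the count minimum only through the 24-month libraries. These 11 are included in the first counts above, and the minimum favours their higher direction. Xcl1, Cxcl13, Cxcl3, Ccl1, Ccl3, Ccr4, Cxcr2 and Cxcr5 are the 8 among them with a p under 0.05. Xcl1 (log2 fold change 2.44 without mouse 17), Cxcr5 (1.37 without mouse 10) and Cxcr2 (1.88 without mouse 4) lost it when 1 mouse was left out.

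**Figure D1:**
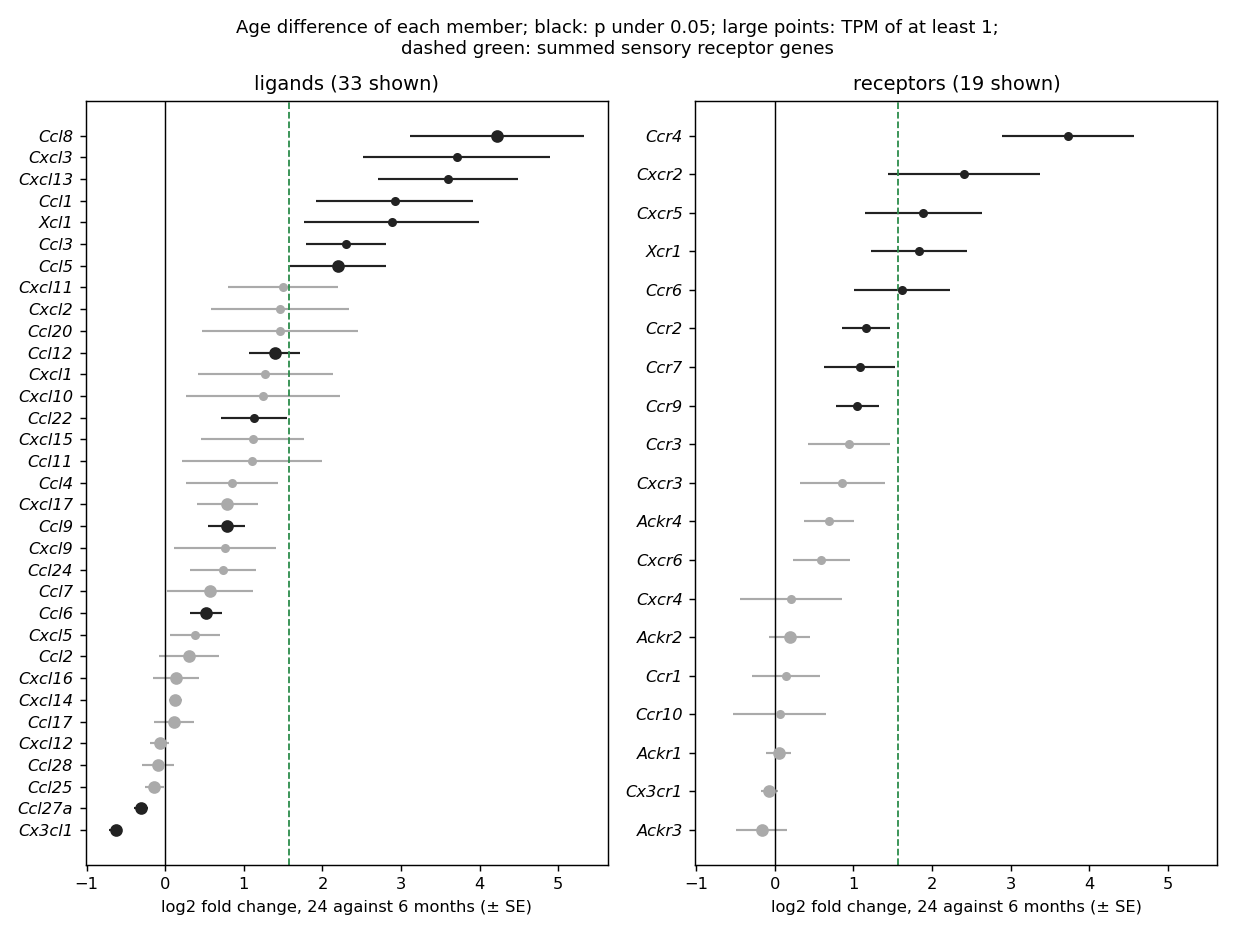
Log2 fold change of the tested members reported here, 24 against 6 months, from edgeR (points). Bars are 1 SE, derived from the test statistic. Ligands are on the left and receptors on the right, with members of a mean TPM of at least 1 as large points. Black points have an unadjusted p under 0.05, and the dashed line is the summed sensory receptor genes at 1.57. Cx3cl1 and Ccl27a are the black points below 0, the other 19 black points lie above it, and the large receptor points lie within 0.19 of 0.

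Levels are compared between genes as TPM, which scales counts to gene length and to the library. Over the 6 mice, 16 ligands and 5 receptors had a mean of at least 1 TPM, and 6 ligands and 2 receptors at least 10 TPM. Cx3cl1 ranked first in the family with 784 TPM and stood at rank 133 of all genes. Cxcl14 followed with 350 TPM, Ccl27a with 70.3 TPM and, as the leading receptor, Cx3cr1 with a mean of 62.6 TPM at 6 months. The summed ligand level was 1340, 1400 and 1420 TPM at 6 months and 1270, 1170 and 1180 TPM at 24 months. Cx3cl1 made up 66.7%, 66.6% and 66.6% of this sum in the young mice and 53.4%, 53.4% and 54.0% in the old ones. With Cx3cl1 and Cxcl14 set aside, the remaining ligands summed to 136, 150 and 140 TPM and to 206, 175 and 160 TPM. In deposited TPM the ages did not overlap in any of these sums. The TMM factors, which are larger at 24 months, were not applied here. They would lower the sums of old mice relative to young ones, so the separation of the remaining ligands depends on the scaling. The summed ligand level was already lower in the old mice. The share of Cx3cl1 is taken within each library, so such factors do not change it. Among the remaining ligands, Ccl8 had means of 1.12 and 23.2 TPM and Ccl12 of 4.95 and 14.2 TPM at 6 and 24 months. The receptors together held far less mRNA, with 102, 99.9 and 116 TPM at 6 months and 113, 109 and 128 TPM at 24 months, and here the ages overlapped.

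**Figure D2:**
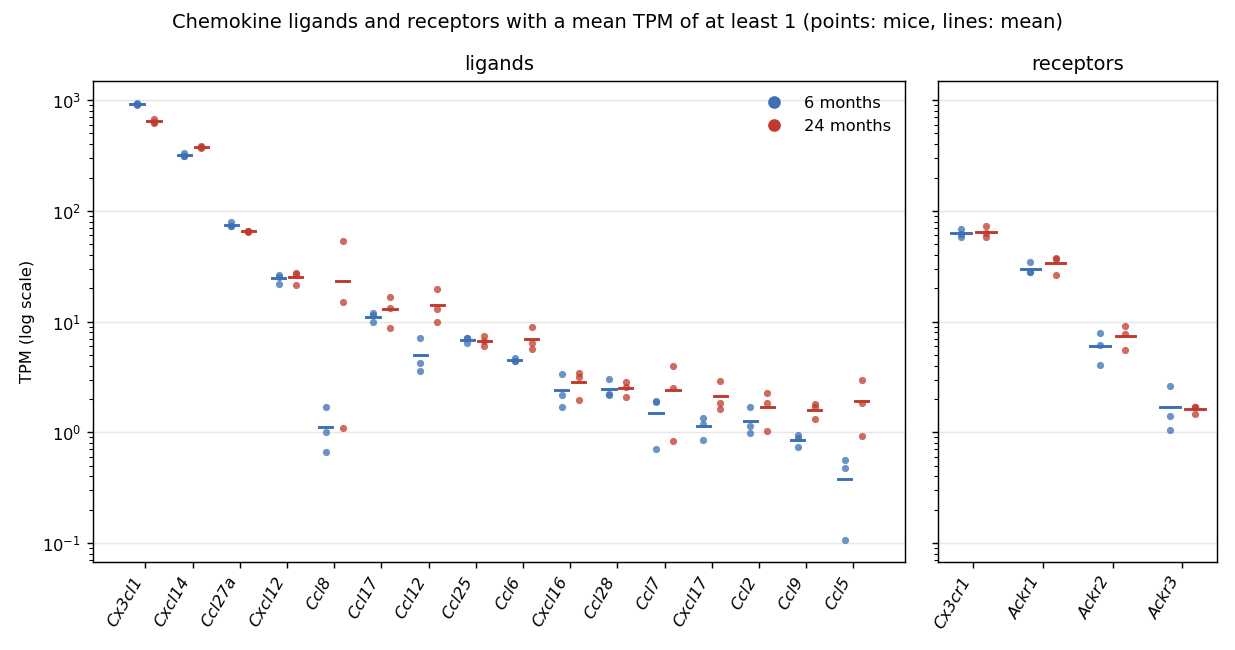
TPM (log scale) of 16 ligands and 4 receptors with a mean of at least 1 TPM, with a point for each mouse and a line for the mean of each age. Cx3cl1 and Cxcl14 stand above all other members, Cx3cl1 is lower and Ccl12 higher in each 24-month mouse, and Ccl8 spreads from 1.09 to 53.8 TPM among the 24-month mice.

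Fractalkine showed the clearest lower value at 24 months. Cx3cl1 (ENSMUSG00000031778.13, chromosome 8 from 94772009 to 94782427, GRCm38, plus strand) had 894, 930 and 944 TPM in young mice and 679, 623 and 636 TPM in old mice. All old mice lay below all young mice, and the mice of each age lay close together, with 923 ± 25.7 against 646 ± 29.1 TPM (SD, n = 3). These levels rest on 22265 to 35651 counts per mouse. The log2 fold change was -0.63 (SE 0.08, adjusted p = 0.0312, edgeR quasi-likelihood test), a level of 0.647 times that at 6 months. Relative to the median of the genes above 1 CPM it was -0.49, and under scaling by library totals it was -0.44. Leaving out single mice moved it between -0.66 and -0.59. In bulk tissue, fewer cells of a type and less RNA per cell cannot be told apart. Of 7 neuron markers, Snap25 (-0.31) and Syt1 (-0.40) were lower at a p under 0.05 and 0 were higher. The summed neuron markers ranged from 4050 to 4680 TPM at 6 months and from 3260 to 4230 TPM at 24 months, none of them at 0, and their part in the lower Cx3cl1 was not tested.

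The receptor of fractalkine did not follow the ligand. Cx3cr1 (chromosome 9 from 119901616 to 120069879, minus strand) had 58.4, 61.5 and 67.9 TPM at 6 months and 58.2, 62.6 and 72.4 TPM at 24 months. The ages overlapped, and the log2 fold change of -0.07 (SE 0.11, adjusted p = 0.675, edgeR quasi-likelihood test) took either sign depending on the scaling. Of 10 other microglia markers, 1 was higher (Tmem119, 0.34) and 1 lower (Csf1r, -0.34) at a p under 0.05. Their sums were 611 to 626 TPM at 6 months and 633 to 693 TPM at 24 months, without overlap in deposited TPM. The TMM factors, not applied to these sums, would lower those of old mice relative to young ones. The ratio of Cx3cl1 to Cx3cr1 TPM, a quantity chosen after the values were seen, was 15.3, 15.1 and 13.9 in the young mice and 11.7, 9.95 and 8.78 in the old ones. Its means were 14.8 ± 0.757 and 10.1 ± 1.47 (SD, n = 3), and a two-sided exact permutation test gave p = 0.1, the smallest p possible with 3 mice per age.

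**Figure D3:**
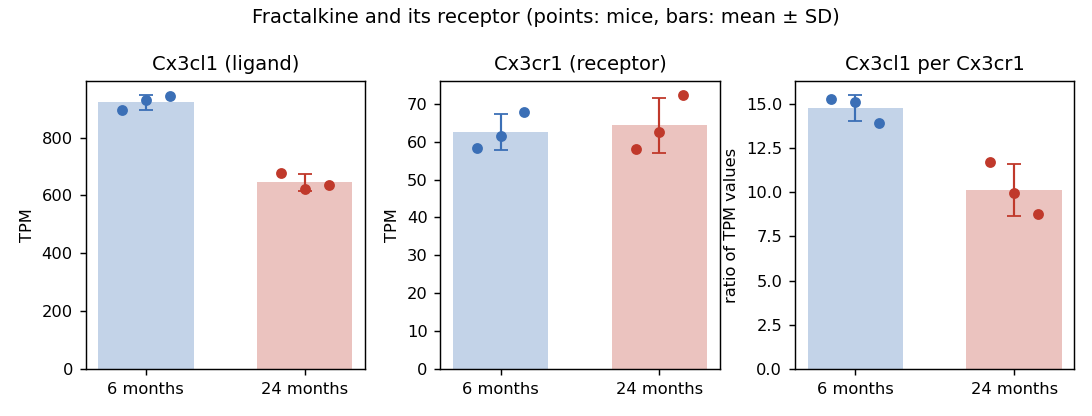
TPM of Cx3cl1 and Cx3cr1 and their ratio by age, with a point for each mouse and bars for the mean ± SD (n = 3). The ages did not overlap in the ligand (894 to 944 against 623 to 679 TPM), the receptor overlapped, and the ratio was lower in each old mouse.

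The proteases that release fractalkine from the membrane are Adam10 and Adam17. Their mRNAs were also lower, with log2 fold changes of -0.37 (adjusted p = 0.0747) and -0.32 (adjusted p = 0.114, both edgeR quasi-likelihood test), and all old mice lay below all young mice in both. Of the 6 sheddases and chemokine-cleaving proteases listed, these 2 were lower at a p under 0.05, beside 13.1% of all genes. The 1 counted as higher, Ctsg, had 0, 0 and 1 counts at 6 months and 5, 4 and 1 counts at 24 months, with overlap, and reached the count minimum only through the old mice. The remaining Dpp4, Mmp2 and Mmp9 had log2 fold changes of -0.30, 0.03 and -0.32. Lower values of this size can depend on the scaling, and these proteases were read out with TMM only.

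Among the other abundant ligands, differences were small and depended on the scaling. Cxcl14, a ligand of epithelial and neural tissue, had 311, 316 and 334 TPM at 6 months and 386, 368 and 381 TPM at 24 months. Each old mouse lay above each young one, but the log2 fold change of 0.13 (SE 0.08, adjusted p = 0.312, edgeR quasi-likelihood test) did not pass. With library totals it was 0.32 at an unadjusted p under 0.05, and relative to the genes above 1 CPM it was 0.27. Ccl27a, a skin-associated ligand of Ccr10, had 73.7, 78.9 and 72.9 TPM and 63.9, 66.4 and 66.0 TPM. All old mice lay below the young ones, with a log2 fold change of -0.31 (SE 0.09, adjusted p = 0.0669, edgeR quasi-likelihood test). This value was -0.17 relative to the genes above 1 CPM and -0.12 with library totals, and it had no p under 0.05 with library totals or without mouse 11 (-0.24). Ccl27a lies on chromosome 4 near its copy Ccl27b and near Ccl21a, Ccl21b and Ccl21d, which are copies of one another, and all 4 were listed at 0 in all libraries. The authors dropped reads of low mapping quality, so the split of reads between Ccl27a and Ccl27b and the zeros of the Ccl21 genes are uncertain.

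Cxcl12 and its receptors lay close to no difference. Cxcl12 had 22.0, 26.6 and 25.3 TPM at 6 months and 21.5, 27.7 and 27.1 TPM at 24 months, and the ages overlapped (log2 fold change -0.07, SE 0.12). Its signalling receptor Cxcr4 was scarce, with 5, 4 and 1 counts and 5, 4 and 3 counts. Its scavenger Ackr3 had 2.61, 1.04 and 1.41 TPM and 1.47, 1.68 and 1.70 TPM, with a log2 fold change of -0.17 (SE 0.32) that left-out mice moved from -0.40 to 0.29.

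The other ligands above 1 TPM without a call were Ccl17, Ccl25, Ccl28, Cxcl16, Ccl7, Cxcl17 and Ccl2. Ccl17, which binds Ccr4, had 11.9, 11.4 and 10.0 TPM at 6 months and spread wider at 24 months, with 8.68, 13.3 and 16.8 TPM. Ccl25, a ligand of Ccr9, had 6.35, 7.05 and 7.10 TPM against 6.02, 6.66 and 7.44 TPM. Ccl28, which shares Ccr10 with Ccl27a, had 3.02, 2.18 and 2.22 TPM against 2.57, 2.09 and 2.86 TPM. The ages overlapped in all 3, and log2 fold changes were 0.11, -0.14 and -0.09. Cxcl16, a membrane-bound ligand of Cxcr6, had 1.69, 2.17 and 3.35 TPM against 3.46, 3.17 and 1.96 TPM (log2 fold change 0.14), again with overlap. Cxcl17, a mucosal ligand, had 1.19, 1.35 and 0.848 TPM against 1.85, 2.89 and 1.62 TPM (log2 fold change 0.79, SE 0.39, adjusted p = 0.198, edgeR quasi-likelihood test), without overlap.

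The CC ligands of chromosome 11 made up 7 of the 11 ligands higher at a p under 0.05. They lie in 2 groups of neighbouring genes: Ccl2, Ccl7, Ccl11, Ccl12, Ccl8 and Ccl1 between 82035571 and 82305690, and Ccl5, Ccl9, Ccl6, Ccl3 and Ccl4 between 83525778 and 83664683. In the first group 3 of 6 and in the second 4 of 5 were higher at a p under 0.05, beside 17.6% of all genes. Ccl1, Ccl3 and Ccl11 among them had at most 3 counts in each young mouse, so that the count minimum favours their higher direction.

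Ccl12, a monocyte attractant that binds Ccr2, had 3.59, 7.06 and 4.21 TPM at 6 months and 19.5, 10.0 and 13.1 TPM at 24 months. All old mice lay above all young mice, on 17, 37 and 21 counts against 89, 49 and 63 counts. The log2 fold change was 1.39 (SE 0.33, adjusted p = 0.0552, edgeR quasi-likelihood test), a 2.62-fold higher level. Leaving out single mice moved it between 1.11 and 1.78. Ccl12 lies on chromosome 11 from 82101845 to 82103400, plus strand.

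Ccl8 (chromosome 11 from 82115185 to 82116799, plus strand), which in mice binds Ccr8, had the largest log2 fold change of the 33 ligands tested, with a wide spread between the old mice. It had 0.665, 1.00 and 1.68 TPM in the young mice and 53.8, 14.9 and 1.09 TPM in the old ones, on 3, 5 and 8 counts against 234, 69 and 5 counts. Mice 2 and 4 lay above the young mice, while mouse 5 lay among them. The log2 fold change of 4.22 (SE 1.11, adjusted p = 0.0611, edgeR quasi-likelihood test) was lower without mouse 2 (2.7). In all 24-month mice Ccl8 stood above the level of the sensory receptor genes, on average by 87.1-fold.

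Neighbours of Ccl8 and Ccl12 showed smaller values. Ccl7 had 5, 15 and 14 counts at 6 months against 17, 29 and 6 counts at 24 months (log2 fold change 0.57), and Ccl2, the main monocyte attractant of the family, had 10, 19 and 12 against 10, 19 and 23 counts (log2 fold change 0.30). The ages overlapped in both. Ccl1, a ligand of Ccr8, had 1, 0 and 1 against 12, 3 and 3 counts, and its level per kb in the old mice was 1.09 times that of the sensory receptor genes.

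The promoters of Ccl12 and Ccl8 are shown because these neighbours were the higher-expressed ligands with the larger differences. The sequences are RefSeq's, on GRCm38.p6 and the plus strand, and end at the base before the gene start. They cover chr11:82101595-82101844 and chr11:82114935-82115184, and the capitals mark the letters TATAAA, which lie 31 and 32 bases before the start.
Ccl12: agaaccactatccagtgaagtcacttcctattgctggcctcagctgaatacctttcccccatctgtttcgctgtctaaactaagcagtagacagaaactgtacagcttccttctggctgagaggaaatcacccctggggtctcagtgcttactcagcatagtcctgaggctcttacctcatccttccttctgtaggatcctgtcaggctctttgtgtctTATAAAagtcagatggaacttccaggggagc
Ccl8: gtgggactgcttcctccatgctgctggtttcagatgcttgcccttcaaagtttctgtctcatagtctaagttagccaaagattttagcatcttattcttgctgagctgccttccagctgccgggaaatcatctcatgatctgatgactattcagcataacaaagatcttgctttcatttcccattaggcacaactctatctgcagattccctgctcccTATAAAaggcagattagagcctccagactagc
Promoter sequences of RefSeq were matched for 28 ligands and 19 receptors. A gene was counted if any of its promoter windows matched, and the windows were not cut at the gene start as the stretches above were. On both strands, TATAAA was found in 10 of these ligands (35.7%) and 5 receptors (26.3%), against 15.7% of all 27025 genes with such windows. An NF-kB motif (GGGA, TT and CC with 1 free base between them) was found in Cxcl1, Cxcl2, Cxcl3 and Cxcl10 (14.3% of ligands) and in Ccr3 and Ccr6 (10.5% of receptors), against 1.38% of these genes. An interferon response motif (GAAA, 2 free bases, GAAA) was found in Ccl19, Cxcl10 and Cxcl14 (10.7%) and 0 receptors, against 3.99%. None of these motifs contains another, and a match describes the sequence only.

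In the second group of chromosome 11, Ccl3 and Ccl5 were the ligands with the larger differences. Ccl3, a macrophage inflammatory protein, had 2, 2 and 2 counts at 6 months and 7, 13 and 12 counts at 24 months. All old mice lay above all young mice, and the ratio of the summed, scaled counts was 5.17 (95% exact interval 2.13 to 15.1, counting error only). The log2 fold change was 2.30 (SE 0.51, adjusted p = 0.0526, edgeR quasi-likelihood test), between 2.16 and 2.51 without single mice. Ccl5, a T cell-attracting ligand made by T cells among others, had 4, 1 and 5 counts against 15, 26 and 8 counts, again with no overlap. Its ratio was 4.75 (2.38 to 10.5), with a log2 fold change of 2.20 (SE 0.61, adjusted p = 0.0629, same test). Ccl4, the close relative of Ccl3, overlapped between ages with 4, 2 and 4 against 3, 8 and 8 counts (log2 fold change 0.85, SE 0.58).

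Ccl9 and Ccl6, ligands of Ccr1 made by myeloid cells, had more counts and smaller differences. Ccl9 had 24, 28 and 21 counts at 6 months and 34, 50 and 46 counts at 24 months, with a log2 fold change of 0.78 (SE 0.24, adjusted p = 0.0760, edgeR quasi-likelihood test). Ccl6 had 74, 78 and 74 counts against 97, 93 and 144 counts, with a log2 fold change of 0.52 (SE 0.20, adjusted p = 0.125, same test). It had no p under 0.05 without mouse 5 (0.30) or without any 1 of the young mice (0.51 to 0.55). In both genes each old mouse lay above each young mouse. The receptor Ccr1 had 7, 17 and 28 against 14, 24 and 21 counts (log2 fold change 0.14). The ages overlapped.

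**Figure D4:**
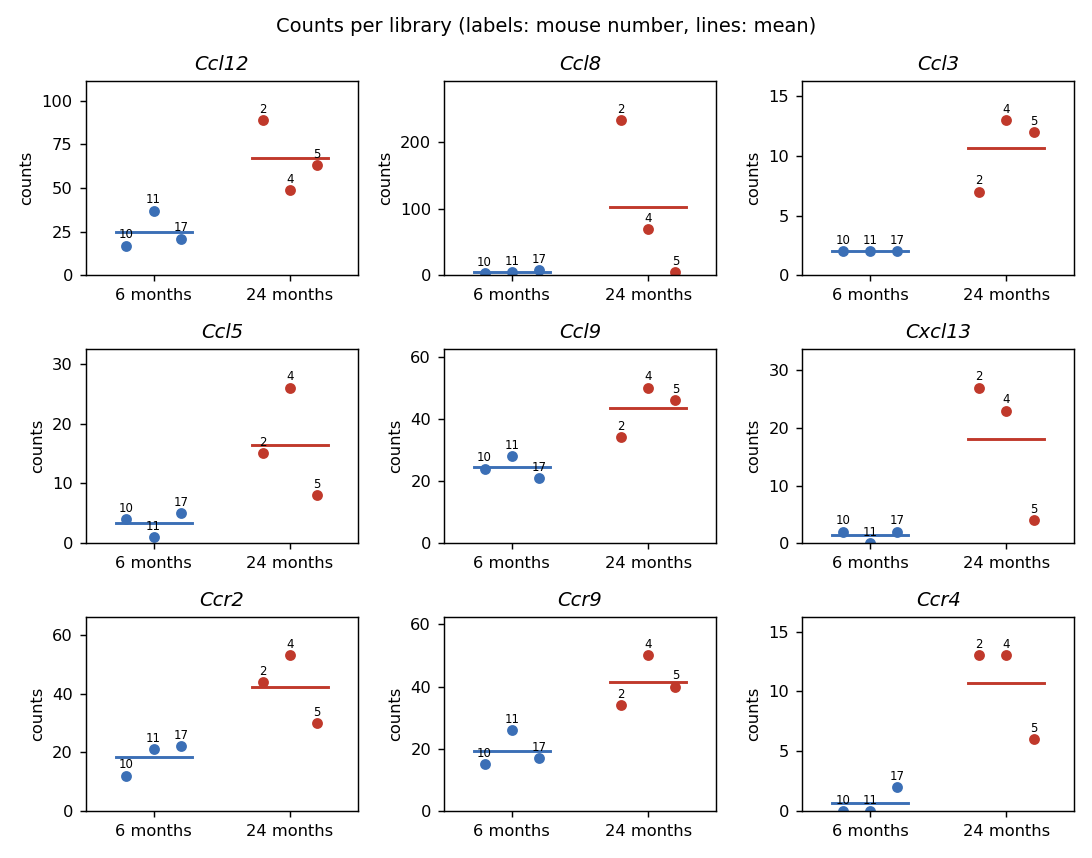
Counts per mouse for 6 ligands and 3 receptors that were higher at 24 months at an unadjusted p under 0.05, with the mouse number above each point and the mean of each age as a line. The ages separate in all 9 genes apart from Ccl8, where mouse 5 has 5 counts, within the 3 to 8 of the 6-month mice, and mouse 2 holds 234.

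Cxcl13, the ligand that draws B cells into follicles through Cxcr5, lies on chromosome 5 (95956951 to 95961068, plus strand). It had 2, 0 and 2 counts at 6 months and 27, 23 and 4 counts at 24 months. Each old mouse lay above each young mouse, although mouse 5 lay close to them. The ratio of scaled counts was 13.1 (95% exact interval 4.83 to 49.8, counting error only), and the log2 fold change 3.60 (SE 0.89, adjusted p = 0.0562, edgeR quasi-likelihood test) lay between 3.05 and 4.08 without single mice. Its receptor Cxcr5 had 0, 2 and 3 against 8, 8 and 4 counts, a level per kb 0.850 times that of the sensory receptor genes in the old mice. Of 5 tested B cell markers, 3 were higher at a p under 0.05 (Ms4a1, Cd79b and Jchain), beside 17.6% of all genes. Ms4a1 had 1, 2 and 4 counts in young mice and reached the count minimum only through the old ones. The B cell markers summed to 1.34 to 2.62 TPM at 6 months and 4.04 to 6.66 TPM at 24 months. Their part in the result was not tested.

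The remaining CXC ligands were scarce. Cxcl9, Cxcl10 and Cxcl11, the interferon-induced ligands of Cxcr3, lie next to each other on chromosome 5 (92321347 to 92365485), and 0 of 3 had a p under 0.05. The annotation gives Cxcl11 as a polymorphic pseudogene. Cxcl10 had 0, 8 and 1 counts at 6 months and 15, 5 and 2 counts at 24 months, so the ages overlapped, and Cxcl11 and Cxcl10 lie within Art3 on the opposite strand. Cxcr3 itself had 2, 4 and 4 against 4, 9 and 6 counts (log2 fold change 0.86, SE 0.54). Of the neutrophil ligands Cxcl1, Cxcl2, Cxcl3, Cxcl5 and Cxcl15, 1 of 5 (Cxcl3) had a p under 0.05. Cxcl3 had 0, 0 and 1 counts against 11, 6 and 1 counts, with overlap, at 0.737 times the sensory receptor level in the old mice. Their receptor Cxcr2 had 0, 2 and 1 against 7, 10 and 1 counts, at 0.834 times that level. Neutrophil markers were higher in 1 of 7 tested, beside 17.6% of all genes, with sums of 7.85 to 11.3 TPM and 2.90 to 19.8 TPM. This marker, Mpo, had 1, 5 and 0 counts in young mice and reached the count minimum only through the old ones.

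The receptors divided by level. The receptors of at least 1 TPM, among them Cx3cr1, Ackr1, Ackr2 and Ackr3, gave 0 calls at a p under 0.05. All 8 receptors with a p under 0.05 had a mean below 1 TPM. The 4 atypical receptors gave 0 calls. Ackr1, which binds many CC and CXC ligands on venules, had 27.9, 27.8 and 34.2 TPM against 37.9, 26.3 and 36.7 TPM, and Ackr2, a scavenger of CC ligands, had 7.94, 4.06 and 6.16 TPM against 5.56, 7.74 and 9.05 TPM. Both overlapped between ages. Ackr1 shares 361 exonic bases, 25.7% of its exons, with Cadm3 on the same strand (119 TPM), so reads of this pair cannot be fully told apart. Ackr4, which scavenges Ccl19, Ccl21 and Ccl25, had 21, 20 and 29 against 32, 29 and 56 counts (log2 fold change 0.69, SE 0.32, adjusted p = 0.170, edgeR quasi-likelihood test).

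Ccr2, the receptor by which monocytes answer Ccl2, Ccl7 and Ccl12, was higher at 24 months. Ccr2 (chromosome 9 from 124101950 to 124113557, plus strand) had 12, 21 and 22 counts at 6 months and 44, 53 and 30 counts at 24 months. All old mice lay above all young mice. The log2 fold change was 1.16 (SE 0.31, adjusted p = 0.0615, edgeR quasi-likelihood test), from 0.97 to 1.37 with mice left out. Its level in the old mice was 2.65 times that of the sensory receptor genes, and 0.97 on the log2 scale remained when that level was subtracted in each library. Of the border macrophage markers 1 of 10 was higher (Folr2), beside 17.6% of all genes, with sums of 10.5 to 16.9 TPM and 13.2 to 24.1 TPM. Folr2 had 0, 0 and 1 against 5, 8 and 1 counts, with overlap, and reached the count minimum only through the old mice.

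Ccr9 and Ccr4 are receptors of lymphocytes, the former for Ccl25 and the latter for Ccl17 and Ccl22. Ccr9 (chromosome 9 from 123678439 to 123784330, plus strand) had 15, 26 and 17 counts against 34, 50 and 40 counts, without overlap (log2 fold change 1.05, SE 0.27, adjusted p = 0.0589, edgeR quasi-likelihood test). It has 10260 exonic bases, its level in the old mice was 1.70 times the sensory receptor level, and after subtraction the log2 fold change was 0.50 with no call. Ccr4 (chromosome 9 from 114490316 to 114504916, minus strand) had 0, 0 and 2 counts at 6 months and 13, 13 and 6 counts at 24 months. Each old mouse lay above each young one, with a ratio of 15.5 (95% exact interval 3.96 to 134, counting error only) and a log2 fold change of 3.73 (SE 0.84, adjusted p = 0.0532, same test). In the young mice Ccr4 lay below the sensory receptor level in 3 of 3, and in the old mice above it in 3 of 3, on average by 1.47 times. Its ligand Ccl22, made by dendritic cells, had 8, 4 and 5 against 14, 14 and 11 counts (log2 fold change 1.13, SE 0.42, adjusted p = 0.108, same test), with no p under 0.05 without mouse 11, 17, 2 or 4 (0.94 to 1.10).

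The other receptors with a p under 0.05 were Xcr1, Ccr6, Ccr7, Cxcr5 and Cxcr2. Xcr1, a receptor of cross-presenting dendritic cells, had 3, 6 and 3 against 10, 28 and 7 counts, and without mouse 4, the highest, its log2 fold change of 1.83 (SE 0.61, adjusted p = 0.0890, edgeR quasi-likelihood test) was 1.06 with no p under 0.05. Its ligand Xcl1 had 0, 1 and 0 against 4, 5 and 1 counts. Ccr6, which binds Ccl20, had 2, 1 and 4 against 7, 11 and 5 counts (log2 fold change 1.62, SE 0.61, and 1.28 to 1.56 with no p under 0.05 without mouse 10, 11 or 4), while Ccl20 had 1, 1 and 2 against 5, 7 and 0 counts. Ccr7, the lymph node homing receptor, had 8, 5 and 7 against 17, 8 and 19 counts and overlapped at 8 counts (log2 fold change 1.08, SE 0.45, adjusted p = 0.141, same test). Without mouse 11, 17, 2 or 5 it had no p under 0.05 (0.87 to 1.11). Of its ligands, Ccl19 had 0, 0 and 1 against 1, 3 and 0 counts and was not tested, and the Ccl21 genes were at 0.

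T cell markers differed along with these receptors. Of 9 tested, 5 were higher at a p under 0.05 (Cd2, Cd247, Cd8a, Cd3g and Cd3d) and 0 lower, beside 17.6% and 13.1% of all genes. The 9 markers summed to 5.32 to 6.43 TPM at 6 months and 7.23 to 9.65 TPM at 24 months. Cd247, Cd8a, Cd3g and Cd3d had at most 4 counts in each young mouse and reached the count minimum only through the old ones. Cd8a was at 0 in mouse 10 and Cd3g at 0 in mouse 11. Cd4, Lck and Skap1, the markers with the most counts, had log2 fold changes of 0.36, 0.09 and -0.01. The part of these cells in the receptor values was not tested. Ccr8, the receptor of Ccl8 and Ccl1, had 0, 0 and 0 counts at 6 months and 2, 3 and 1 counts at 24 months, at or under the floor of 3 counts per library at both ages, so no fold is given. Ccr10 had 6, 12 and 7 against 2, 16 and 9 counts, and Cxcr6 had 12, 9 and 11 against 18, 21 and 11 counts, both with overlap. Ccr10 lies within Cntnap1 and Cxcr6 within Fyco1, each on the opposite strand and with 0 shared exonic bases. The counting was not stated to use strand, so unspliced reads of the surrounding gene on these exons cannot be told apart. Exons overlapped those of an opposite-strand gene in other members, among them Cxcl11 (41.7% of its exons, with Gm2673), Ccr9 (18.8%, AC165425.1), Xcl1 (18.7%, Gm20743) and Cxcl16 (18.3%, Zmynd15). Ccr1l1 was the member with the opposite pattern among scarce receptors, with 2, 2 and 2 against 1, 0 and 0 counts, too few for the test.

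The eosinophil receptor Ccr3 and its ligands Ccl11 and Ccl24 gave 0 calls. Ccr3 had 6, 4 and 4 counts at 6 months against 14, 5 and 9 at 24 months (log2 fold change 0.94, SE 0.52), and the ages overlapped. Ccl24 had 5, 4 and 6 against 8, 10 and 8 counts without overlap (0.73, SE 0.42), and Ccl11 had 0, 2 and 1 against 3, 2 and 2 counts, at or under the floor of 3 per library at both ages.

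Several receptor genes neighbour each other on chromosome 9, among them Ccr9, Cxcr6, Xcr1, Ccr1, Ccr1l1, Ccr3 and Ccr2. Of these, Ccr9, Xcr1 and Ccr2 were higher at a p under 0.05, beside 17.6% of all genes. With the sensory receptor level subtracted, Ccr9 and Xcr1 had no p under 0.05, and Xcr1 had none without mouse 4.

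Set beside the sensory receptor genes, the members ran from far above to below. Of the 57 members with a count, 36 lay above the sensory receptor level per exonic kb in all 24-month mice and 32 in all 6 mice. The level of these genes differed by 0.0465 CPM per exonic kb between the ages. Of the 19 members higher at a p under 0.05, 18 had a larger difference, the exception being Cxcr5 with 0.0446. These 19 were picked by their higher values in the same mice, so this count is no test against the sensory receptor level. Some members without a call also exceeded 0.0465, among them Cxcr6 and Ackr4. Ccl8 differed by 5.78, Ccl12 by 2.33, Ccl6 by 0.555, Cxcl13 by 0.432, Ccl5 by 0.395 and Ccl3 by 0.331, while Ccr4 differed by 0.0961, Ccr9 by 0.0621 and Cxcl3 by 0.0487. With the sensory receptor level subtracted from each library, 6 ligands (Ccl8, Ccl12, Ccl3, Ccl5, Cxcl13 and Ccl9, of 23 tested) and 1 receptor (Ccr2, of 15 tested) were higher at a p under 0.05, beside 3.59% of all genes tested that way, and 19.0% of all genes were lower. The receptor Ccr4 no longer reached 10 counts.

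**Figure D5:**
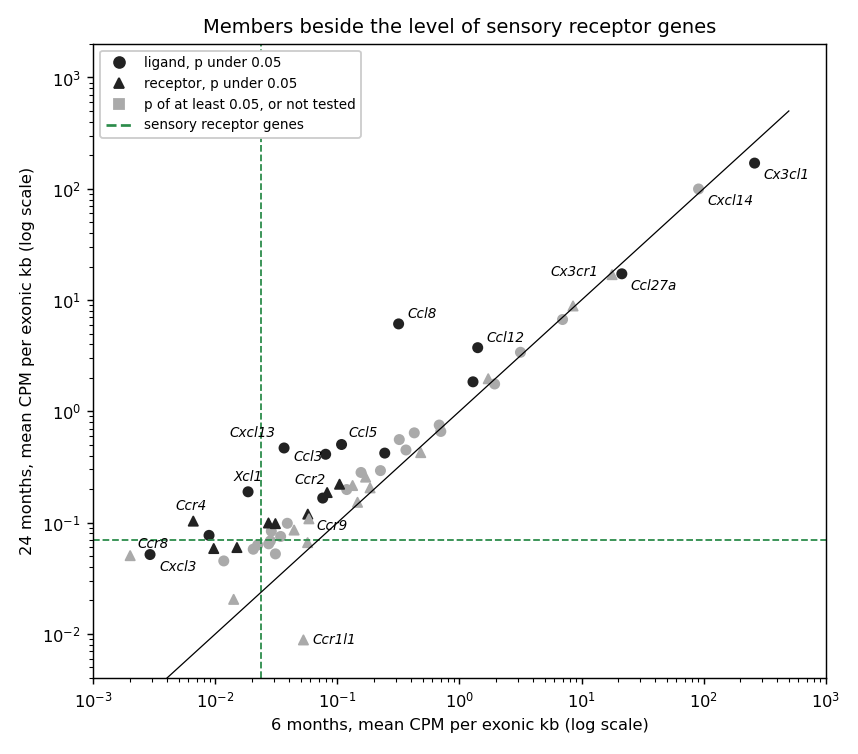
Mean CPM per exonic kb of the members reported here that had a count at 6 months (x axis) and at 24 months (y axis), both on log scales, with circles for ligands, triangles for receptors, and black for an unadjusted p under 0.05. The line marks equal levels and the dashed lines the sensory receptor genes (0.0236 and 0.0701); Ccr8, at 0 at 6 months, is drawn as the leftmost point. Ccl8, Ccl12, Cxcl13, Ccl5 and Ccl3 lie well above both the line and the dashed level, whereas Ccr9, Ccr4, Ccr8 and Cxcl3 lie close to the dashed level.

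Genes that act with the chemokines but carry other symbols, from lists chosen by function, are given beside the 17.6% of all genes that were higher and the 13.1% that were lower at that p. Of 7 chemokines and receptors with other symbols, Cd74 (1.36) and Gpr35 (1.15) were higher at a p under 0.05 and Mif, a ligand of Cd74, was lower (-0.24). Of 17 genes of the G protein and arrestin arm, 0 were higher and Gnai3 (-0.52), Gnai1 (-0.34), Gng2 (-0.25) and Gnb2 (-0.22) were lower. Gnai3 encodes an inhibitory G protein subunit used by chemokine receptors and by many others. Of 15 genes of the migration arm, Fgr, a myeloid kinase, was higher (0.95), and Ptk2b (-0.41), Elmo1 (-0.37), Cdc42 (-0.30) and Rac1 (-0.26) were lower. These 4 are also expressed by neurons. Of 18 inducers of chemokine genes, 14 were tested. Among them Il6 was higher (1.70), and Nfkbia (-0.56), an inhibitor of NF-kB that is itself its target, and Ifngr2 (-0.30) were lower. Tnf had a log2 fold change of 0.22 (SE 0.88) and Il1b of -0.25 (SE 0.29), neither with a p under 0.05. Lower values as small as most of those in these lists can depend on the scaling, and the lists were read out with TMM only.

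The remaining marker lists place the tissue. Of 7 astrocyte markers Gfap was higher (0.69) and Aqp4 lower (-0.40), with sums of 2880 to 3070 TPM at 6 months and 3330 to 3480 TPM at 24 months. Oligodendrocyte, endothelial, mural and meningeal fibroblast markers gave 0 calls in either direction. Their summed levels overlapped, with 1430 to 2270 against 861 to 2600 TPM for oligodendrocytes, 123 to 153 against 105 to 171 TPM for endothelial cells, 203 to 256 against 165 to 337 TPM for mural cells and 35.2 to 89.1 against 36.4 to 109 TPM for fibroblasts. Choroid plexus markers were higher in 1 of 8 (Otx2, 1.17), with sums of 37.4 to 117 against 50.9 to 117 TPM. Of 5 red blood cell genes 3 were lower (Hbb-bt, Hbb-bs and Hba-a2), with sums of 345 to 443 against 278 to 389 TPM.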

How the data were processed

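Cortex RNA of 6 mice was sequenced by the authors as single-end reads from low-input libraries, trimmed with Trim Galore 0.6.4, mapped to GRCm38 (GENCODE annotation) with STAR 2.7.3a and counted on exons with featureCounts of Subread 2.0.0, with a minimum mapping quality. For each mouse the authors deposited a count and a TPM value per gene. All values in the deposited count files were whole (100%), although the stated options would split reads of several positions, and they entered the tests unchanged. The deposited TPM values were used for levels and shares only.

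Genes reaching 10 counts summed over the libraries were fitted with edgeR 4.0.16 (R 4.3.3), using TMM scaling and the quasi-likelihood test with Benjamini-Hochberg adjustment over all genes tested. The study names edgeR and 1% FDR but no test within it. Members were read out from this fit. Each SE is the absolute log2 fold change divided by the square root of the F statistic of this test. Alternatives were edgeR's likelihood ratio test, DESeq2 1.42.0, its size factors in edgeR, library totals, filterByExpr, no minimum, subtraction of the sensory receptor level per exonic kb, and each mouse left out. The fit was also run on simulated counts in which only genes of higher counts were changed and scarce genes had no age shift. That run does not cover changes in members of few counts or the shift of the sensory receptor genes. The members and lists were chosen with earlier results of these data known. Values per mouse are given for members with a mean TPM of at least 1, for those with a p under 0.05 and at least 30 counts, for Ccl8, Cxcl13 and Ccr4, and for ligands and receptors described as pairs. Some genes of the family and of the lists are not reported here. Lists were markers of 13 cell types and 5 groups of genes that act with chemokines. Positions are those of GENCODE vM21 (GRCm38), in which all 63 members were found. Python 3.11.15 with scipy 1.17.1 gave intervals and the permutation test. With totals of 29495379 to 36494240 counts, scarce members rest on a few reads, and intervals cover counting error only.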

Additional observations from a re-analysis of the deposited data

How the results depend on the processing

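No paired analysis was possible because the ages share no mouse numbers. The cause of the shifts below was not tested, beyond the fewer genes tested under stricter filters and subtraction. Ligands higher at a p under 0.05 numbered 11, but 6 with filterByExpr (16 tested), 6 with the sensory receptor level subtracted, and 7 (without mouse 2) to 13 (without mouse 5) with single mice left out. Ligands lower numbered 2, but 1 with library totals and 1 to 2 with single mice left out, the 1 being without mouse 11. Receptors higher numbered 8, but 3 with filterByExpr (10 tested), 1 with the subtraction, 5 with DESeq2, and 5 (without mouse 10 or mouse 2) to 8 with single mice left out. Receptors lower were 0 under each alternative that was run. Members past 1% FDR numbered 0, but 9 with the likelihood ratio test, 1 with no filter and 1 with DESeq2, beside 1703, 42 and 278 of all genes. Members with no call changed sign when library totals replaced TMM: Cx3cr1 0.12, Cxcl12 0.12, Ccl25 0.05, Ccl28 0.10 and Ackr3 0.03 on the log2 scale. With filterByExpr this held for Cx3cr1 0.04, Cxcl12 0.05 and Ccl28 0.02. With single mice left out, the log2 fold change ranged from -0.16 to 0.01 for Cx3cr1, from -0.03 to 0.21 for Ackr1, from -0.14 to 0.05 for Cxcl12, from -0.12 to 0.33 for Ccl17, from -0.06 to 0.45 for Cxcl16, from -0.20 to 0.08 for Ccl28 and from -0.40 to 0.29 for Ackr3. Cx3cl1, Ccl8, Ccl12, Ccl3, Ccl5, Ccl9, Cxcl13, Ccr2 and Ccr4 kept direction and a p under 0.05 wherever they were tested. Of these, Ccl8, Ccl3, Ccl5, Cxcl13 and Ccr4 were not tested with filterByExpr, nor Ccr4 with the subtraction. Ccl27a, Ccl6, Ccl22, Ccr6, Ccr7, Xcr1, Xcl1, Cxcr5 and Cxcr2 lost a p under 0.05 without at least 1 mouse. Ccr9 kept it with each mouse left out, but had a log2 fold change of 0.50 and no call with the subtraction. Ccl1 and Cxcl3 are not placed in either list. At these totals, ratios against groups with 1 to 3 counts per library carry wide counting intervals.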
